A study of Mus musculus with 4 samples.

Results

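The NRF2 target genes and metallothioneins examined here were *Hmox1*, *Nqo1*, *Gclm*, *Gclc*, *Txnrd1*, *Srxn1*, *Prdx1*, *Nfe2l2*, *Mt1* and *Mt2*. All probe sets annotated with 1 of these 10 symbols and no other gene were taken, which gave 18 probe sets of 9 genes among 45037 probe sets on the array and 18193 genes with a probe set of their own. *Prdx1* had none, because its 5 probe sets also name the predicted gene *Gm21399*, and their values are given apart. RNA came from costal chondrocytes of C57BL6/J mice at postnatal day 5, isolated with collagenase from the ribs of pooled litters and combined from 3 extractions for each genotype. The wild type had neither change (*Xbp1* WT), and in XBP1 null cartilage (*Xbp1* Col2CreΔex2, labelled *Xbp1* KO) a Cre recombinase under the *Col2a1* promoter removed exon 2 of *Xbp1*. The V194D mutant, shown as Matn3 mutant in the plots, carried the V194D knock-in of matrilin-3 (*Matn3*) with intact *Xbp1*, and the double mutant carried the knock-in together with the deletion. The Cre is directed at cells that use the *Col2a1* promoter, and which other cells of the preparation carry the deletion was not tested. The comparisons ask how each mutation, alone and on the background of the other, relates to the expression of these genes. Each genotype had 1 array, so a difference between genotypes has no replicate check and no error, and single comparisons carry no p-value.

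NRF2, encoded by *Nfe2l2*, is a transcription factor that is held in the cytosol and degraded through the adaptor KEAP1. When oxidants or electrophiles modify KEAP1, NRF2 escapes, pairs with small MAF proteins and binds antioxidant response elements in genes of glutathione synthesis, thioredoxin reduction, quinone detoxification and heme breakdown. PERK, a kinase of the unfolded protein response, is also known to phosphorylate NRF2. Metallothioneins are small cysteine-rich proteins that bind zinc and copper, and their genes are activated through metal response elements by the zinc sensor MTF1.

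The deposited values are linear signals, and the median over all probe sets was 43.8 on every array. Pearson correlations of log2 signals between arrays, taken over probe sets that are no independent samples, lay between 0.956 and 0.974. The brightest *Xbp1* probe set read 8183 in wild type, 7877 in XBP1 null, 11403 in V194D mutant and 9548 in double mutant chondrocytes; arrays of this kind probe the 3' end of transcripts, no probe position was given that would tie it to exon 2, and so it does not check the deletion. Chondrocyte genes were bright on every array, with *Col2a1* between 10187 and 13571 and *Acan* between 7475 and 10139, and none of 11 chondrocyte markers was over 1.5-fold higher in any comparison, while *Matn1* was 1.75-fold lower in the V194D mutant. The summed signal of 10 endothelial markers was 99.9 in the wild type, 5609 in XBP1 null, 709 in V194D mutant and 1252 in double mutant cartilage, and *Pecam1* was under 1 on every array but the XBP1 null one. In XBP1 null cartilage set against wild type, 10 of 10 endothelial, 6 of 11 leukocyte and macrophage, 6 of 6 osteoblast, 5 of 7 perichondrium and fibroblast, 5 of 8 skeletal muscle, 3 of 4 adipocyte and 2 of 5 erythroid markers were over 1.5-fold higher, and none was lower by that much. In the V194D mutant compared to wild type, 9 endothelial, 5 leukocyte, 1 osteoblast, 1 perichondrium, 1 muscle and 1 adipocyte markers were higher, and 3 leukocyte, 4 osteoblast, 2 perichondrium, 5 muscle and 2 erythroid markers were lower. The double mutant had 10 of 10 endothelial, 5 of 6 osteoblast, 3 of 4 adipocyte, 4 leukocyte, 3 perichondrium, 2 muscle and 2 erythroid markers lower than XBP1 null cartilage, with 2 muscle and 1 leukocyte markers higher. Against the V194D mutant it had 7 endothelial, 6 of 8 muscle, 5 of 7 perichondrium, 2 osteoblast, 2 erythroid, 1 leukocyte and 1 adipocyte markers higher, with 1 endothelial and 1 osteoblast marker lower. Against wild type 9 endothelial, 5 leukocyte, 2 muscle, 2 adipocyte, 1 osteoblast, 1 perichondrium and 1 erythroid markers were higher in it, and 3 muscle, 3 osteoblast, 2 leukocyte and 2 erythroid markers were lower. The part of other cell types in the differences described here was not tested. A lower signal can come from fewer cells of a type or from less RNA per cell, and the 2 cannot be told apart in these samples.

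Promoter windows were matched for 8 of the 10 genes in RefSeq (GRCm38.p6), all but *Hmox1* and *Gclc*. *Txnrd1* has 3 annotated starts, so there were 10 windows of 300 bases, each with 250 before the transcript start and 50 after it. They were searched on both strands for the core of the antioxidant response element, TGACNNNGC, and for the core of the metal response element, written as TGCACNC or TGCGCNC. The antioxidant core was found once each in *Gclm*, *Srxn1*, *Prdx1*, *Nfe2l2*, *Mt2* and 1 window of *Txnrd1*, and in 12.4% of all 32851 windows of the table. The metal core was found 4 times in *Mt2*, 3 times in *Mt1*, 3 times in *Gclm* and once in *Srxn1*. At least 1 metal core was in 25.7% of all windows, at least 3 were in 1.97%, and at least 4 in 0.517%. The window of *Nqo1* and the other 2 of *Txnrd1* held neither core, which says only that these letters are not in these 300 bases. The windows of *Mt1*, *Mt2*, *Gclm* and *Srxn1* are printed below. The first pair shares the metal core, and the latter pair was picked for its higher signals in XBP1 null cartilage, described further on. *Gclm* and *Srxn1* hold both cores, but so does *Mt2*, which was 1.20-fold higher there than in wild type. *Txnrd1* and *Nfe2l2*, 1.69-fold and 2.16-fold higher there on their brightest probe sets, hold no metal core. A link between the cores and the signals was not tested. Capitals mark the matches, and the antioxidant core of *Gclm*, at -134 to -126, overlaps its metal core at -138 to -132.

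The first window is that of *Mt1* at chr8:94178839-94179138 on the plus strand.
Mt1: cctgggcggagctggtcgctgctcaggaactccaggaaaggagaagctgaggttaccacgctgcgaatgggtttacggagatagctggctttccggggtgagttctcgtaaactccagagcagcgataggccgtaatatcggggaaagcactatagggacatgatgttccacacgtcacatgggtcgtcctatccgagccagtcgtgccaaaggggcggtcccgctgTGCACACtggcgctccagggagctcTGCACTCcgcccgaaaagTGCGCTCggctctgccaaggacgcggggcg
The next is that of *Mt2*, its neighbour on the same strand, at chr8:94172368-94172667.
Mt2: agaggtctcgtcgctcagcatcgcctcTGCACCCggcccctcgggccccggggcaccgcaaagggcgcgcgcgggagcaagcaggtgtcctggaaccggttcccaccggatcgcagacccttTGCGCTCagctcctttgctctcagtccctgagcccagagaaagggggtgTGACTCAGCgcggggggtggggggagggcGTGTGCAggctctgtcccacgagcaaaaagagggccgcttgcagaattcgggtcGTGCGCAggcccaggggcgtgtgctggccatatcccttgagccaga
*Gclm* lies on the plus strand of another chromosome, at chr3:122245307-122245606.
Gclm: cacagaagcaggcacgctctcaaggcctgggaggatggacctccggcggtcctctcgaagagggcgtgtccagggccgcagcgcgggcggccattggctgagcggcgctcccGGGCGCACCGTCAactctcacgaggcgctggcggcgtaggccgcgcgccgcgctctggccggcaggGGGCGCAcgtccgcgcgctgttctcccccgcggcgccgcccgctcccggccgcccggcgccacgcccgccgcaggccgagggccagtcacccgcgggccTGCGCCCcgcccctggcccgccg
*Srxn1* lies at chr2:152105274-152105573, also on the plus strand.
Srxn1: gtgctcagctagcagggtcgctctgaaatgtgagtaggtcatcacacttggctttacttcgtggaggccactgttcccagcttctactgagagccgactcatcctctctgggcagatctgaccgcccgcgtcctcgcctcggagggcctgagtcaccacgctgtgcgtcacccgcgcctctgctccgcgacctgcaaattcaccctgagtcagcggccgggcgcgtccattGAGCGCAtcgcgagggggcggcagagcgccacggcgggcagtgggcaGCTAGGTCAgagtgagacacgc

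**Figure D1:**
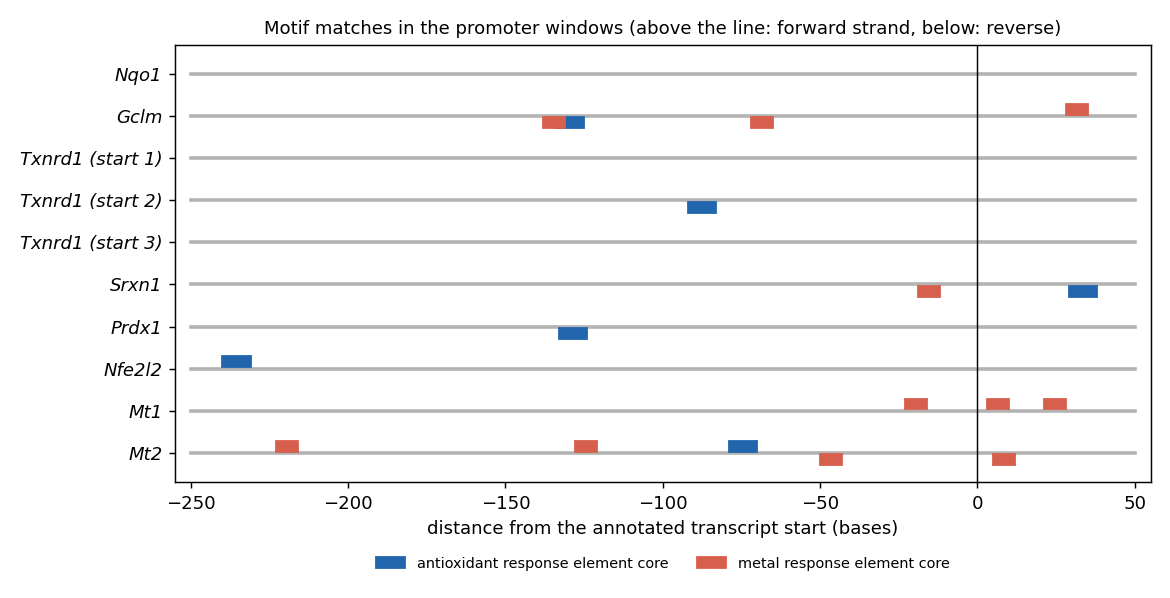
Positions of motif matches in the 10 promoter windows, as distance in bases from the annotated transcript start, with blue bars for the antioxidant response element core and red bars for the metal response element core, above the line on the forward strand and below it on the reverse strand. *Mt2* holds 4 metal cores and 1 antioxidant core, *Mt1* holds 3 metal cores, and *Nqo1* holds neither.

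Of the 18 probe sets, 7 were over 1.5-fold higher in V194D mutant compared to wild type chondrocytes and 1 was lower by that much, beside 22.0% higher and 20.8% lower over all probe sets. In XBP1 null cartilage set against wild type 8 were higher and 3 lower, beside 21.6% and 17.5%. The 8 were both probe sets of *Gclm*, all 4 of *Srxn1*, the brightest of *Nfe2l2* and the brightest of *Txnrd1*. Between the double mutant and the V194D mutant 3 were higher and none lower, beside 15.8% and 15.4%, and between the double mutant and XBP1 null cartilage 4 were higher and 5 lower, beside 18.1% and 19.5%. The double mutant compared to wild type had 6 higher and 2 lower, beside 22.8% and 19.2%. The median log2 difference over the 18 probe sets was 0.36 in the V194D mutant and 0.46 in XBP1 null cartilage set against wild type, where the medians over all probe sets were 0.00 and 0.01. It was 0.04 between the double mutant and the V194D mutant (0.04 over all probe sets) and -0.21 between the double mutant and XBP1 null cartilage (0.00 over all). Probe sets of 1 gene share their transcript, so these counts are not over independent genes, and *Srxn1* and *Txnrd1* together supply 7 of the 18. With each of the 9 genes counted once, on its brightest probe set, the median turned to -0.14 in the V194D mutant (0.00 over all genes) and was 0.27 in XBP1 null cartilage (0.09 over all genes). Dim probe sets pass 1.5-fold more often than bright ones, and 16 of the 18 had a mean log2 signal at or above the median, where 14.1% of all probe sets were higher and 17.7% lower in the V194D mutant, and 16.7% higher and 11.0% lower in XBP1 null cartilage. Among those 16, 5 were higher and 1 lower in the V194D mutant, while XBP1 null cartilage had 8 higher and 1 lower.

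**Figure D2:**
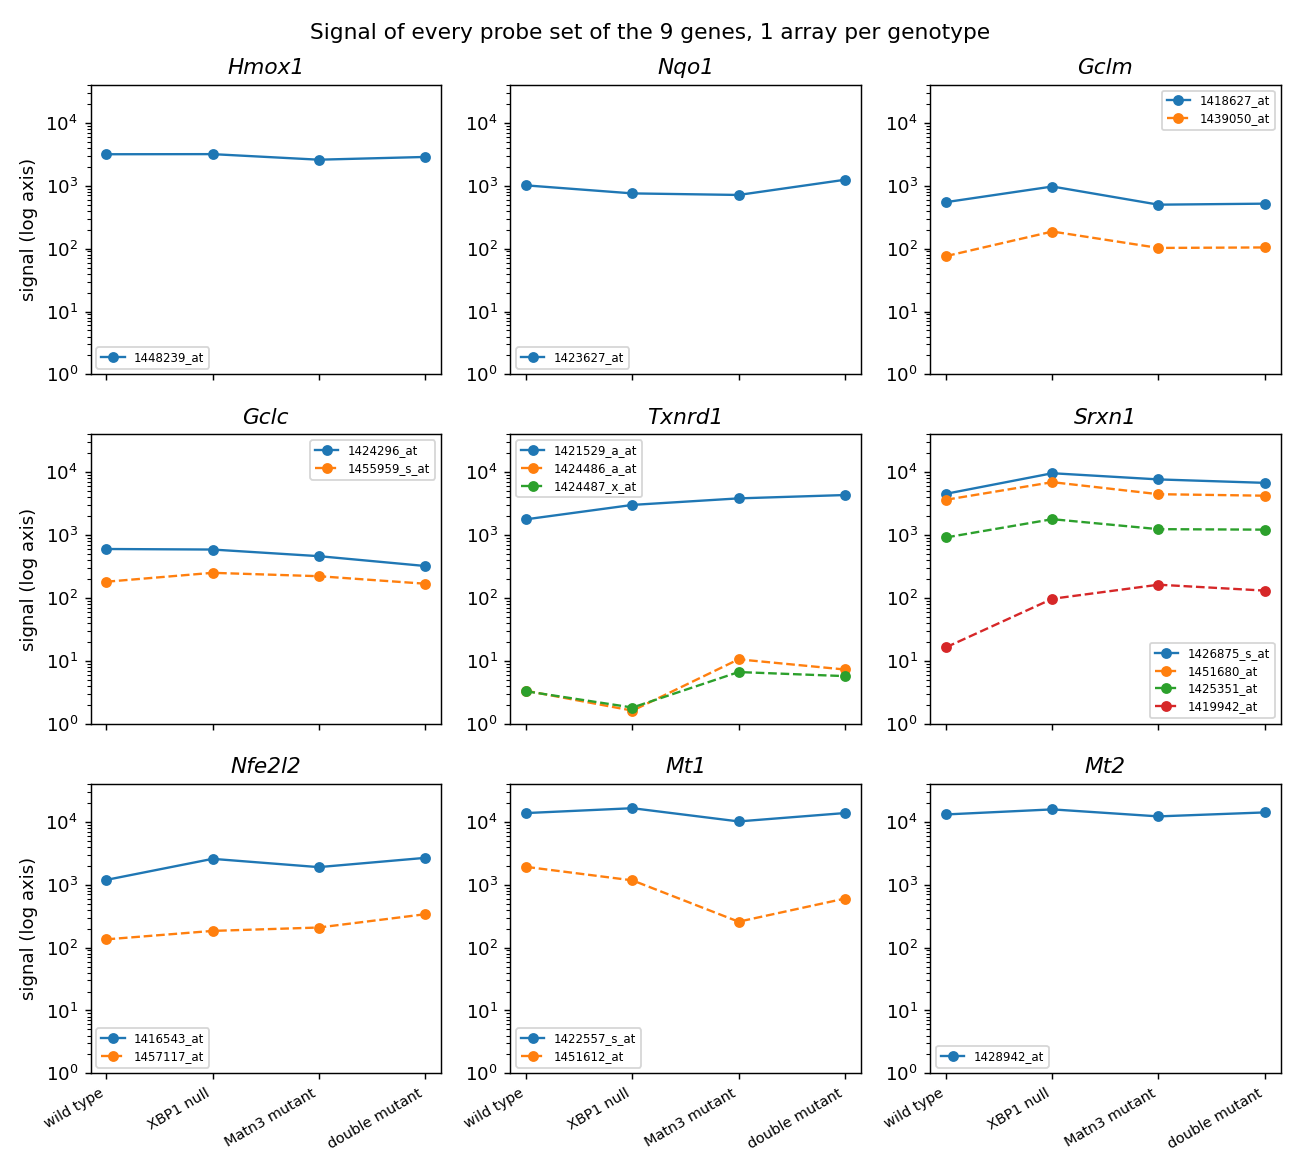
Signal of each of the 18 probe sets on a log axis, by genotype, with 1 array per genotype and 1 panel per gene; lines join the values of 1 probe set and solid lines mark the probe set with the highest mean. The probe set 1451612_at of *Mt1* is lowest in the V194D mutant, at 258, whereas the other probe set of *Mt1* and that of *Mt2* are at 10123 or above on every array.

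*Nfe2l2*, which encodes NRF2 itself, read 1192 in wild type, 2573 in XBP1 null, 1900.02 in V194D mutant and 2665 in double mutant chondrocytes on its brightest probe set, 1416543_at. All mutants were above the wild type, by 2.16-fold, 1.59-fold and 2.24-fold. Its other probe set, 1457117_at, had 135, 184, 208 and 338 in the same order, so the wild type was again lowest and the double mutant highest. On that probe set the difference between XBP1 null and wild type was 1.36-fold, under the 1.5-fold limit, and the V194D mutant was 1.54-fold higher than wild type. *Keap1*, which encodes the adaptor that directs NRF2 to degradation, had 585, 582, 379.5 and 505 in wild type, XBP1 null, V194D mutant and double mutant, and was 1.54-fold lower in the V194D mutant than in wild type. *Bach1*, which encodes a repressor that competes for the same elements, had 1412, 2931, 1950.5 and 2453, and was 2.08-fold higher in XBP1 null cartilage.

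The glutamate-cysteine ligase catalyses the rate-limiting step of glutathione synthesis, and *Gclm* encodes its modifier subunit. *Gclm* had 549, 971, 499.7 and 518 as its signals in wild type, XBP1 null, V194D mutant and double mutant chondrocytes on the probe set 1418627_at. XBP1 null cartilage stood above the other 3 genotypes, which lay within 1.10-fold of the wild type. Its other probe set, 1439050_at, had 76.1, 187, 103 and 104 in the same order, again highest in XBP1 null cartilage. There the difference from wild type was 2.46-fold, against 1.77-fold on the brighter probe set, and the double mutant was lower than XBP1 null cartilage by 1.79-fold and 1.87-fold. *Gclc*, which encodes the catalytic subunit, had 603, 591, 464 and 324 on the probe set 1424296_at, so the double mutant was lowest, 1.86-fold under the wild type. On its other probe set, 1455959_s_at, the signals were 182, 252, 223 and 169, and none of the comparisons passed 1.5-fold. The 2 probe sets of *Gclc* differed in direction between each single mutant and the wild type and went the same way, lower, when the double mutant was set against either single mutant.

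Thioredoxin reductase 1, encoded by *Txnrd1*, returns oxidized thioredoxin to its reduced form with NADPH. On the probe set 1421529_a_at *Txnrd1* read 1791 in wild type, 3029.6 in XBP1 null, 3847 in V194D mutant and 4348 in double mutant chondrocytes. The wild type was lowest and the double mutant highest, with differences from wild type of 1.69-fold, 2.15-fold and 2.43-fold. Its other probe sets, 1424486_a_at and 1424487_x_at, were dim, with signals of 1.63 to 10.6 and 1.82 to 6.67, around the 25th percentile of the arrays (5.05 to 5.81). They too were higher in the V194D mutant than in wild type, by 3.17-fold and 2.02-fold, but lower in XBP1 null cartilage, by 2.07-fold and 1.81-fold, the opposite of the bright probe set. Among genes at or above the median signal, those with the most similar pattern of log2 signals to that bright probe set over the 4 arrays, by Euclidean distance after centring, were *Nr6a1* (0.0909), *Rhoj* (0.0951), *Dnd1* (0.103), *Gpt2* (0.104) and *Lonrf3* (0.116), of 10982 genes searched. With 4 arrays such a likeness is a description only.

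Sulfiredoxin, encoded by *Srxn1*, repairs peroxiredoxins whose cysteine has been oxidized to sulfinic acid. The probe set 1426875_s_at of *Srxn1* read 4557 in wild type, 9659.9 in XBP1 null, 7704 in V194D mutant and 6791 in double mutant chondrocytes. The probe set 1451680_at had 3661, 6967, 4484 and 4245 in the same order, and 1425351_at had 922, 1797, 1247 and 1225. On all 3 the wild type was lowest and XBP1 null cartilage highest, with differences of 2.12-fold, 1.90-fold and 1.95-fold. The V194D mutant was 1.69-fold, 1.22-fold and 1.35-fold above the wild type on them. The dimmest probe set, 1419942_at, had signals of 16.6, 97.5, 163 and 132, so the wild type was again lowest but the V194D mutant highest, 9.85-fold above it. The double mutant was below the V194D mutant on all 4 probe sets, by 1.02-fold to 1.24-fold.

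Peroxiredoxin 1 reduces hydrogen peroxide and is a substrate of sulfiredoxin. The 5 probe sets that list *Prdx1* together with *Gm21399* cannot be given to 1 gene, and none of them passed 1.5-fold in any comparison. Of these, the probe set 1416000_a_at had 7020.2, 8490.3, 5811 and 7316 as its signals in wild type, XBP1 null, V194D mutant and double mutant chondrocytes, lowest in the V194D mutant. The other 4, all with the suffix _x_at, had their lowest signal in the wild type and their highest in the double mutant, between 1.22-fold and 1.41-fold apart.

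Heme oxygenase 1, encoded by *Hmox1*, breaks heme down to biliverdin, iron and carbon monoxide, and its gene is also held back by BACH1. *Hmox1* had 3164, 3178, 2592 and 2865 as its signals in wild type, XBP1 null, V194D mutant and double mutant chondrocytes, so the genotypes spanned 0.29 on the log2 scale, the narrowest range of the 18 probe sets. *Blvrb*, which encodes biliverdin reductase B, had 129, 143, 10.7 and 75.9, and was 12.1-fold lower in the V194D mutant than in wild type. *Nqo1*, which encodes a quinone reductase that is commonly read as a marker of NRF2 activity, had 1012, 755, 713 and 1242 in the same order. Each single mutant was below the wild type, by 1.34-fold in XBP1 null cartilage and 1.42-fold in the V194D mutant, and the double mutant was above all of them. The double mutant was 1.74-fold higher than the V194D mutant and 1.65-fold higher than XBP1 null cartilage. *Hmox1* and *Nqo1* were each measured by 1 probe set.

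The 2 probe sets of *Mt1*, which encodes metallothionein 1, had their highest signal in different genotypes. The probe set 1422557_s_at of *Mt1* read 13749.6 in wild type, 16420.4 in XBP1 null, 10123 in V194D mutant and 13744 in double mutant chondrocytes. That of *Mt2*, which encodes metallothionein 2, had 13070.3, 15726.4, 12170.5 and 14070.6. On these probe sets the order of XBP1 null as highest and V194D mutant as lowest was shared, the differences from wild type were at most 1.36-fold, and both lay above 99.7% of all probe sets in mean log2. The highest signal of any probe set was 18520.0 to 24498 per array. The other probe set of *Mt1*, 1451612_at, had 1916, 1170.2, 258 and 599.9, with the wild type highest and the V194D mutant lowest, 7.43-fold below it. The double mutant was 2.33-fold higher than the V194D mutant there and 3.19-fold lower than wild type, and XBP1 null cartilage was 1.64-fold lower than wild type. The suffix _s_at marks probes that can match more than 1 transcript, and whether the probe set 1422557_s_at also measures other metallothioneins was not tested.

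**Figure D3:**
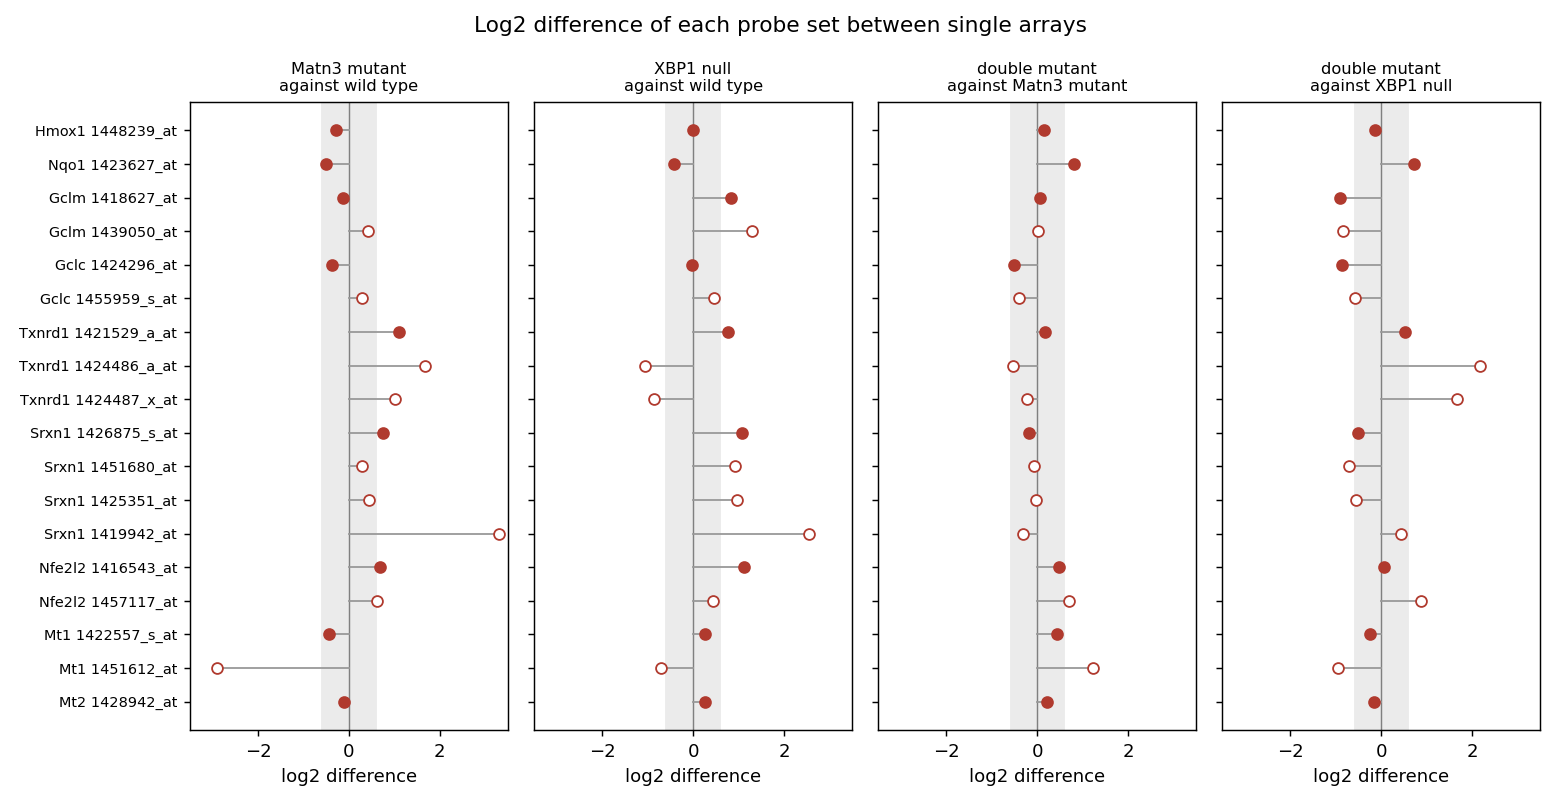
Log2 difference of each of the 18 probe sets in 4 comparisons of single arrays, with filled points for the brightest probe set of a gene, open points for its others and grey bands for differences within 1.5-fold. The 4 *Srxn1* and 2 *Gclm* probe sets lie to the right of the band in XBP1 null compared to wild type, and *Mt1* 1451612_at lies at -2.89 in the V194D mutant compared to wild type.

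Each mutation was measured on 2 backgrounds that share no array. For the V194D mutation, that is V194D mutant against wild type and double mutant against XBP1 null, 6 of the 18 probe sets were higher on both backgrounds, 6 lower on both and 6 went opposite ways. Those over 1.5-fold higher on both were the dim pair of *Txnrd1* and *Nfe2l2* 1457117_at, and 1 was over 1.5-fold lower on both, *Mt1* 1451612_at. Over all 45037 probe sets, 25.9% were higher on both, 27.0% lower on both and 38.5% opposite, with 8.03% over 1.5-fold higher and 7.18% lower on both. For the loss of XBP1, that is XBP1 null against wild type and double mutant against V194D mutant, 8 were higher on both, 3 lower on both and 7 opposite, and none passed 1.5-fold the same way on both. The shares over all probe sets were 28.2%, 18.2% and 43.8%, with 4.20% over 1.5-fold higher and 4.98% lower on both, so the members' counts are not read as a result about them. On the background of the V194D mutation the *Gclm* and *Srxn1* probe sets, which were higher in XBP1 null than in wild type cartilage, differed by at most 1.24-fold between genotypes with and without *Xbp1*. The departure from additive effects on the log2 scale was -1.27 for *Srxn1*, -0.77 for *Gclm*, -0.58 for *Txnrd1*, -0.62 for *Nfe2l2* and 1.22 for *Nqo1* on their brightest probe sets. The other probe sets of *Txnrd1* departed the opposite way, by 0.51 and 0.64, as did *Nfe2l2* 1457117_at, by 0.25. On the brightest probe sets of the remaining genes the departure was -0.49 for *Gclc*, 0.138 for *Hmox1*, 0.185 for *Mt1* and -0.058 for *Mt2*. No spread over all genes is given beside these values. No array is left over to test these departures. The *Gclm* and *Srxn1* probe sets were singled out by their difference between XBP1 null and wild type cartilage. The departure subtracts that same difference. With 1 array per genotype, such a choice alone can give a smaller difference beside the V194D mutation and a negative departure. Whether the V194D mutation alters the effect of the loss of XBP1 was not tested.

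**Figure D4:**
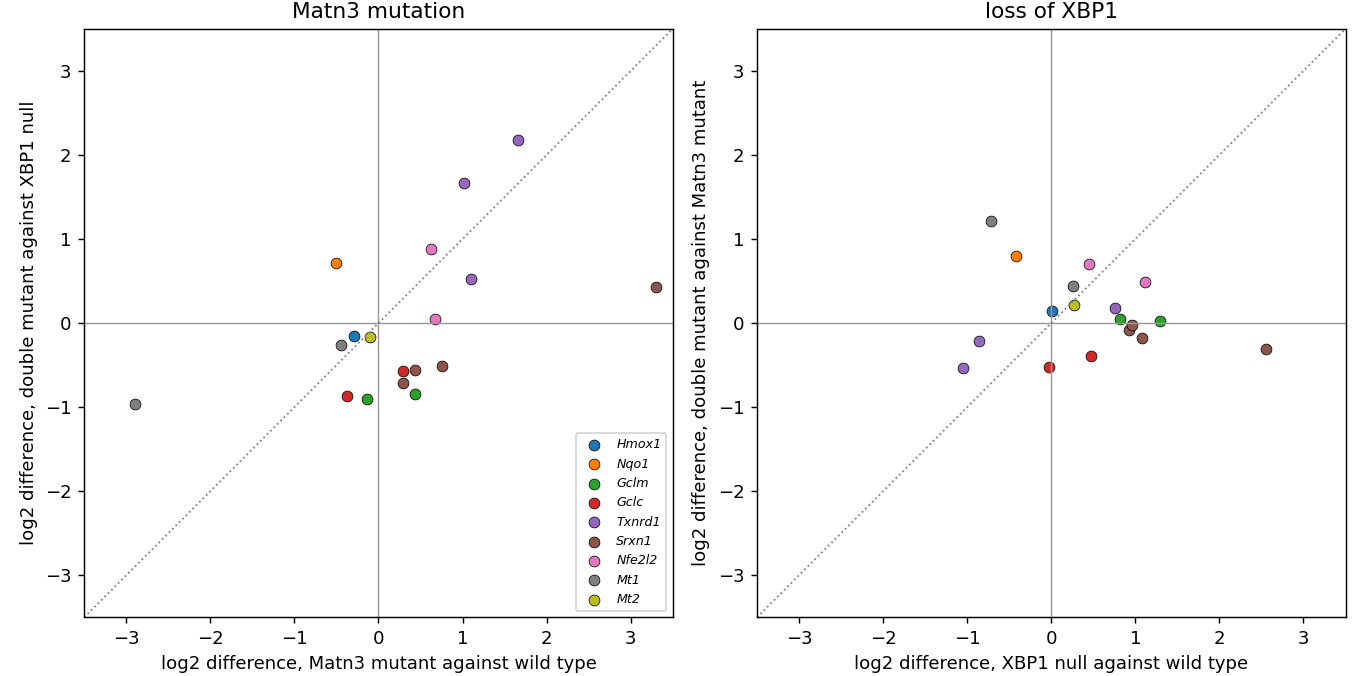
Log2 difference of the 18 probe sets with the V194D mutation (left) and with the loss of XBP1 (right), on the background without the other mutation (horizontal axis) and with it (vertical axis); points are probe sets, colours are genes and the dotted line marks equal differences. The *Srxn1* and *Gclm* points of the right panel lie far to the right and close to the horizontal line. They differed by at most 1.24-fold between the double mutant and the V194D mutant, and were singled out by their difference without the V194D mutation.

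All 4 arrays entered 1 additive limma model with a term for V194D and a term for the loss of XBP1, with adjustment over all 45037 probe sets. None of the 18 probe sets passed an adjusted p of 0.05 for either effect, and 0% of all probe sets did. At an unadjusted p under 0.05 there were 3 of the 18 for the mutation, the dim *Txnrd1* pair and *Nfe2l2* 1457117_at, beside 7.51% of all probe sets, and 0 of the 18 for the loss of XBP1, beside 4.56%. The effect of the mutation was 0.81 on the log2 scale for *Txnrd1* 1421529_a_at (standard error 0.22, adjusted p = 0.635 in limma) and -1.93 for *Mt1* 1451612_at (standard error 0.68, adjusted p = 0.636 in limma). It was smaller for the brightest *Mt1* probe set, 1422557_s_at, at -0.35 (standard error 0.14), and for *Mt2*, at -0.13 (standard error 0.13). The effect of the loss of XBP1 was 0.80 for *Nfe2l2* 1416543_at (standard error 0.23, adjusted p = 0.819 in limma). The fit has 1 residual degree of freedom, and its errors take any true interaction of the genotypes for noise.

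Other genes of the pathway were read on their brightest probe sets from 4 lists, beside the shares of all 18193 genes. In the V194D mutant compared to wild type 21.2% of all genes were over 1.5-fold higher and 19.3% lower, in XBP1 null cartilage 23.3% and 11.5%, between the double mutant and the V194D mutant 17.4% and 9.03%, between the double mutant and XBP1 null cartilage 16.6% and 16.9%, and between the double mutant and wild type 24.1% and 12.1%. Of 11 regulators of NRF2, 1 was higher and 2 lower in the V194D mutant (median log2 difference 0.06, against 0.00 over all genes) and 3 higher and none lower in XBP1 null cartilage (0.26, against 0.09). The 3 were *Bach1*, *Trim16*, which encodes a ubiquitin ligase, and the dim *Nfe2l3*. *Maff*, which encodes a small MAF partner, had signals of 4753, 5225, 2951 and 4156 and was 1.61-fold lower in the V194D mutant. *Sqstm1*, which encodes the autophagy adaptor p62 that binds KEAP1, stayed between 9263 and 10152 on its brightest probe set. The authors report *Sqstm1* as lower in the V194D mutant than in wild type, and lower again in the double mutant. Any other probe set of *Sqstm1* was not read here, so the gene is not shown to be unchanged. In the 3 comparisons of the double mutant, this list had 1 higher and 2 lower against the V194D mutant, 0 higher and 2 lower against XBP1 null cartilage, and 3 higher and 1 lower against wild type.

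Of 23 other NRF2 target genes measured, 6 were higher and 6 lower in the V194D mutant (median -0.14), while XBP1 null cartilage had 6 higher and 2 lower (0.14). *Slc7a11*, which encodes the cystine importer that feeds glutathione synthesis, read 32.4 in wild type, 133 in XBP1 null, 188 in V194D mutant and 118 in double mutant chondrocytes. *Gsr*, which encodes glutathione reductase, had 213, 397, 385 and 551, with the wild type lowest and the double mutant highest. *Aox1*, which encodes an aldehyde oxidase, had 79.4, 30.01, 39.7 and 58.6, with the wild type highest. *Fth1*, the heavy chain of ferritin, and *Txn1*, thioredoxin itself, differed from wild type by at most 1.22-fold in the mutants. Against the V194D mutant the double mutant had 7 of the 23 higher and 1 lower (median 0.30, against 0.15 over all genes), against XBP1 null cartilage 2 and 2, and against wild type 5 and 2. The 7 included *Blvrb*, 7.12-fold higher, and *Taldo1*, which encodes transaldolase of the pentose phosphate pathway, 1.57-fold higher.

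Of 18 genes of peroxiredoxins, thioredoxin, glutathione and superoxide removal measured, 3 were higher and 6 lower in the V194D mutant compared to wild type (median -0.23), whereas 1 was higher and 1 lower in XBP1 null cartilage (0.04). *Prdx3*, the mitochondrial peroxiredoxin, had 1231.5, 1149.5, 392.0 and 537 as its signals in wild type, XBP1 null, V194D mutant and double mutant chondrocytes, so both genotypes with mutant matrilin-3 lay under both without it. *Txnip*, which encodes an inhibitor of thioredoxin, had 4474, 2577, 1575 and 2097, with the wild type highest. *Sesn2*, which encodes sestrin 2, a known target of both NRF2 and ATF4, had 160.6, 218, 392.0 and 354, and was 2.44-fold higher in the V194D mutant. *Gpx3*, which encodes the plasma glutathione peroxidase, had 167, 215, 81.0 and 234, and was 2.06-fold lower in the V194D mutant. The double mutant had 4 of the 18 higher and 1 lower than the V194D mutant, 1 and 2 against XBP1 null cartilage, and 2 and 3 against wild type.

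Of 8 zinc and MTF1 genes, 3 were higher and 2 lower in the V194D mutant (median 0.49) while XBP1 null cartilage had 4 higher and 1 lower (0.54), and the dim metallothionein genes *Mt3* and *Mt4* were among the former 3, *Mt4* was among the latter 4 and *Mt3* was the 1 that was lower in XBP1 null cartilage. *Slc30a1*, which encodes a zinc exporter that is a known target of MTF1, had 884, 1483.5, 463 and 417 as its signals in wild type, XBP1 null, V194D mutant and double mutant chondrocytes. Both genotypes with mutant matrilin-3 were below the wild type, by 1.91-fold and 2.12-fold, and XBP1 null cartilage was 1.68-fold above it. *Slc39a14*, which encodes a zinc importer, had 1939, 3024, 3074 and 2767, with the wild type lowest. *Slc39a8*, an importer of the same family, had 233, 438, 335 and 436, and *Mtf1* lay between 189 and 241. In the double mutant this list had 1 higher and 1 lower against the V194D mutant, 1 and 2 against XBP1 null cartilage, and 3 and 1 against wild type.

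**Figure D5:**
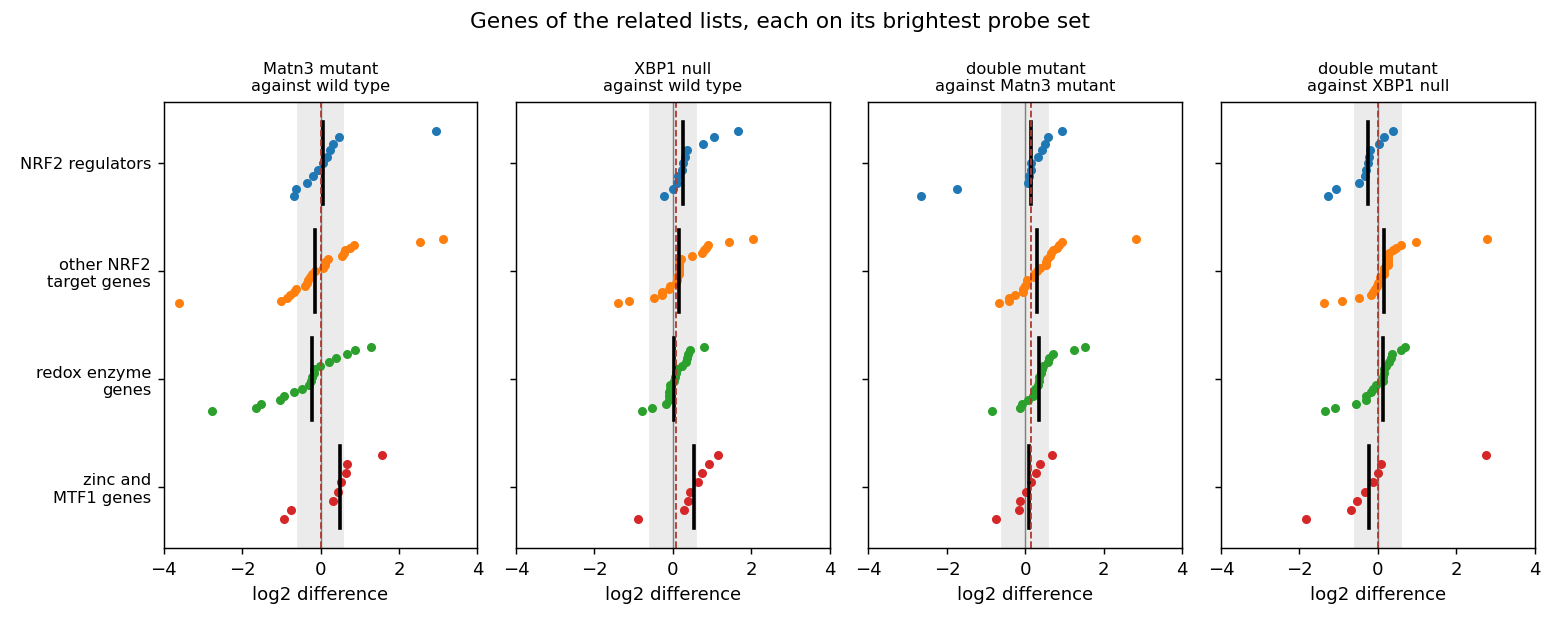
Log2 difference of the genes of the 4 lists in 4 comparisons of single arrays, each gene on its brightest probe set; points are genes, black bars list medians, the dashed red line the median over all 18193 genes, and grey bands mark differences within 1.5-fold. The median of the redox enzyme genes lies at -0.23 in the V194D mutant compared to wild type and at 0.34 in the double mutant compared to the V194D mutant.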

How the data were processed

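The values that the authors deposited are signal intensities on a linear scale, 1 per probe set and array, from 4 whole-genome 3' expression arrays (Mouse430_2). Their methods name Microarray Suite 5 for control hybridizations and PPLR, which needs probe-level errors, for differential expression; for probe summarization and array scaling, a method was not given in the sources used here. Per the file headers no probe-level error is present, so PPLR was not applied. Signals under 1 were set to 1 and log2 was taken without further scaling. Probe sets were named through the platform annotation: 34945 name 1 gene, 932 several and 9160 none, and those with several or none were left out of the counts by gene and of the members, but are among the 45037 probe sets of the shares over all probe sets and of the limma fit. A gene was represented by its probe set with the highest mean log2. A difference over 1.5-fold was counted, with no test, in 5 comparisons. The additive fit used limma 3.58.1 in R 4.3.3 (eBayes with trend, Benjamini-Hochberg, threshold 0.05). It was also run on simulated data with independent noise and no interaction of the genotypes. Such data cannot show how the fit behaves on these arrays. Python 3.11.15 with pandas 2.3.3, numpy 2.4.6 and matplotlib 3.10.9 did the rest. The genes, the 4 pathway lists and the 8 marker lists were chosen with earlier results of these data known. Named besides the members were regulators, zinc genes, and up to 6 genes of each other list with the largest difference from wild type in a single mutant, among genes whose mean log2 was at or above the median of all probe sets; *Taldo1*, *Fth1*, *Txn1*, *Col2a1*, *Acan*, *Matn1* and *Pecam1* were named after their values were seen. Of 132 listed genes 122 had a probe set of their own, and the other 10 were not analysed here. The alternatives were other scalings, floors, fold limits and choices of probe set. With 1 array per genotype no precision is known, and the number of arrays limits it.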

Additional observations from a re-analysis of the deposited data

Results flagged for a closer look

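For 8 of the 18 probe sets a mutation went 1 way on one background and the opposite way on the other, between single arrays, and the difference was not tested. Over all probe sets 56.7% did so for at least 1 of the mutations. That share includes the dim probe sets, whereas 16 of the 18 had a mean log2 signal at or above the median. It therefore cannot decide whether 8 of 18 differs from probe sets of like brightness. The departure from additive effects, on the log2 scale, is (double mutant minus XBP1 null) minus (V194D mutant minus wild type). It measures how far the differences on both backgrounds lie apart, whether or not they go opposite ways. It was 1.22 for *Nqo1*, where both mutations went with a lower signal alone and a higher one together. It was -1.27 for *Srxn1* 1426875_s_at, -1.01 for 1451680_at and -0.99 for 1425351_at, which were higher in each single mutant than in wild type and lower in the double mutant than in either single mutant. *Srxn1* 1419942_at had -2.87, opposite for the loss of XBP1 alone. *Gclm* 1439050_at had -1.27, opposite for the V194D mutation alone, and *Gclc* 1455959_s_at had -0.87, opposite for both mutations. *Mt1* 1451612_at had 1.93, being lower in XBP1 null than in wild type and higher in the double mutant than in the V194D mutant. Several of the directions rest on differences close to 0, such as 1.02-fold for *Srxn1* 1425351_at.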

How the results depend on the processing

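Of the counts of probe sets past 1.5-fold, all 10 remained within 1.5 times under centring of each array on its median. Centring hardly shifts arrays whose medians already lie between 43.79 and 43.84. With quantile normalization 1 count moved, from 0 to 1 lower between the double mutant and the V194D mutant. The floor at the 25th percentile, and likewise the restriction to probe sets at or above the median, gave 1 in place of 3 lower in XBP1 null compared to wild type and 2 in place of 4 higher in the double mutant than in XBP1 null cartilage, since the dim *Txnrd1* pair no longer counted. Without probe sets of suffix s, x or a, 12 were left, and the same 2 counts were 1 and 2, while 3 were higher in the V194D mutant and 3 in the double mutant compared to wild type. With 9 genes by their brightest probe set, 3 were higher and 0 lower in the V194D mutant, 4 and 0 in XBP1 null cartilage and 2 and 1 in the double mutant, each compared to wild type, 1 was higher in the double mutant compared to the V194D mutant, and 1 was higher and 2 lower compared to XBP1 null cartilage. Over all genes, the shares compared to wild type were 21.2% higher and 19.3% lower in the V194D mutant. They were 23.3% and 11.5% in XBP1 null cartilage, and 24.1% and 12.1% in the double mutant. The double mutant had 17.4% higher and 9.03% lower compared to the V194D mutant, and 16.6% and 16.9% compared to XBP1 null cartilage. With a fold limit of 2, 4 were higher in the V194D mutant, 4 higher and 1 lower in XBP1 null cartilage and 1 lower in the double mutant, each compared to wild type, 1 was higher in the double mutant than in the V194D mutant, and 2 were higher and 0 lower than in XBP1 null cartilage. No share over all probe sets is given for the limit of 2, the floor at the 25th percentile, quantile normalization or the 12 probe sets. Those counts therefore do not show whether the members differ from the array.

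Of 180 gene values under an alternative, 164 stayed on their side of the limit. These include all 45 under centring and all 45 under the floor, which could hardly change. The array medians lay between 43.79 and 43.84, and no brightest probe set read under 324, far above the floor of 5.52. Quantile normalization kept 44. As the median over a gene's probe sets 22 stayed, 6 newly passed the limit, 1 fell under it and 1 reversed. Without probe sets of suffix s, x or a 8 stayed, 5 newly passed it, 1 fell under it and 1 passed the other way. *Txnrd1* in XBP1 null compared to wild type turned to -0.86 as the median over its 3 probe sets, 2 of which are dim. Compared to wild type, *Srxn1* in the V194D mutant was 0.29 without its _s_at probe set, *Mt1* in XBP1 null cartilage was -0.71 without its own, and *Gclc* in the double mutant was -0.50 as the median over its probe sets. Another 12 values passed the limit that had not, 8 of them of *Mt1*. Without its _s_at probe set *Mt1* was -2.89 in the V194D mutant and -1.68 in the double mutant, both against wild type, 1.22 in the latter against the V194D mutant and -0.96 against XBP1 null cartilage, and as the median over both probe sets these were -1.67, -0.84, 0.83 and -0.61. The other 4 were *Txnrd1* (1.66) and *Srxn1* (-0.71) in the double mutant against XBP1 null cartilage, and *Nfe2l2* (0.59) and *Gclc* (-0.63) in it against the V194D mutant. In the additive fit no member was called under any of the 4 alternatives, although the limit to 22519 probe sets at or above the median called 13 probe sets in all for the mutation; the smallest adjusted p of a member there was 0.263. The members' unadjusted counts given earlier are those of the main fit and depend on the setting. They were larger for both effects when only probe sets at or above the median were fitted. For the mutation they were smaller under quantile normalization and under the floor at the 25th percentile. No paired analysis was possible because each genotype has 1 array, and no array can be left out without losing a genotype.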
